A study of Mus musculus with 8 samples.

Results

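The transforming growth factor-beta (TGF-beta) axis was described at 10 genes in the aorta of atherosclerosis-prone mice: the ligands Tgfb1, Tgfb2 and Tgfb3, the receptors Tgfbr1, Tgfbr2 and Tgfbr3, the receptor-regulated SMADs Smad2 and Smad3, and the inhibitory SMADs Smad6 and Smad7. They were chosen by name, out of 41186 gene names in the table, and each was read at the assembled locus of that name with the most counts. Levels are fragments per kilobase of the assembled model per library size (FPKM), and all 10 genes reached 1 FPKM in all 8 libraries and were among the 20506 loci tested. The libraries came from whole aortas of mice lacking apolipoprotein E (ApoE-/-), or lacking both natriuretic peptide receptor C and apolipoprotein E (NPRC-/-ApoE-/-). Every mouse carried the ApoE deletion and ate a Western diet, which the study's methods put at 12 weeks. NPRC-/- mice were made by a CRISPR frameshift in exon 1 on a C57BL/6 background, so the receptor was lost in all cell types and not in the aorta alone, and the controls were littermates. Age at collection is not given in the sources used here for this experiment. By title there were 5 ApoE-/- and 3 NPRC-/-ApoE-/- libraries, but the genotype entry contradicted the title in 4 of them. The libraries titled ApoE-/- 4 and 5 were entered as the double knockout, and those titled NPRC-/-ApoE-/- 1 and 2 as the single knockout. Groups below are those of the title, and the log2 fold change of each named gene by title is followed by the one by genotype entry.

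TGF-beta ligands are secreted in a latent form, held by binding proteins in the matrix, and freed by integrins and proteases. The active ligand binds the type II receptor TGFBR2, which brings in and phosphorylates the type I receptor TGFBR1. That receptor phosphorylates SMAD2 and SMAD3, which enter the nucleus with SMAD4, while SMAD6 and SMAD7 are induced as brakes. In the arterial wall the pathway is known for keeping smooth muscle cells contractile and for driving matrix synthesis, and it restrains inflammation.

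Total counts lay between 62969165 and 86693276 per library, and the 10 genes drew between 1229 counts (Smad2) and 33735 counts (Tgfbr1) in a single library. Npr3, the gene that encodes NPRC, ranged from 0.62 to 1.69 FPKM under the ApoE-/- title and from 1.13 to 1.39 under the NPRC-/-ApoE-/- title. These ranges overlapped by either label, and a frameshift need not lower the RNA, so Npr3 did not settle which label holds. The 6 smooth muscle markers, the main cells of the aortic wall, summed to 1294.7 to 2879.63 FPKM, and those of brown fat, which surrounds the vessel, to 93.7 to 419.35. The study's methods count mice and name more double knockouts than were analysed here, while the labels give no mouse numbers, so the p-values measure the spread between libraries. In whole tissue, fewer cells of a type and less RNA per cell cannot be told apart.

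None of the 10 genes differed by title at an adjusted p-value under 0.05 in edgeR's quasi-likelihood test, and the share over all loci tested was 0.0%. The smallest adjusted p-value among them was 0.336, that of Tgfb1. DESeq2 also gave 0 of 10 (3.37% of all loci), as did limma on log2(FPKM + 1) (0.00975%). Limma with array quality weights gave 1 of 10, Tgfb1, at an adjusted p-value of 0.049, where it called 5.7% of all loci. At an unadjusted p-value under 0.05, 1 of 10 was lower in the double knockout (Tgfb1, against 7.13% of all loci) and 1 of 10 was higher (Smad6, against 6.51%), close to what the whole table gave. Adding the fold change cutoff of the study (above 2 or below 0.5) left 0 of 10, against 3.47% of all loci. Fitted log2 fold changes were negative for 7 genes and positive for 3, with a median of -0.06 beside -0.006 over all loci. Only Smad2 had titled groups that did not overlap in FPKM, with the double knockout lower (4.37% of loci did so in this direction and 2.88% in the other). Grouped by genotype entry, 0 of 10 had an unadjusted p-value under 0.05 (1.31% of loci) and 0 of 10 had groups without overlap (0.97%). The sign by title and by entry was the same for 7 genes. The intervals of Tgfb1 and Smad6 by title were the only ones of the 20 that left out 0.

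**Figure D1:**
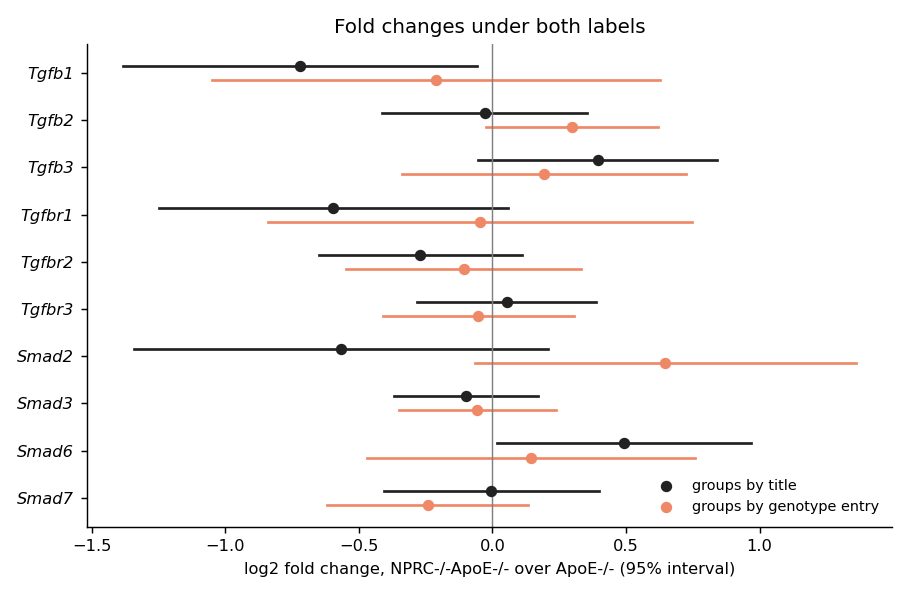
Log2 fold change (x axis, NPRC-/-ApoE-/- over ApoE-/-) of each of the 10 genes (rows), with points for the edgeR estimate and lines for its 95% interval, in black for groups by title and in orange for groups by genotype entry. By title Tgfb1 lies at -0.72 and Smad6 at 0.49 with intervals clear of 0, and by entry all 10 intervals cover 0.

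Upstream sequence is shown for Tgfb1 and Smad6, the genes with the lowest unadjusted p-value in each direction. RefSeq promoters (build GRCm38.p6) matched 6 of the 10 genes, with 7 start sites. The 250 bases before the start site are printed 5′ to 3′ on the gene's own strand, at chr7:25686752-25687001 (plus strand) for Tgfb1 and chr9:64022060-64022309 (minus strand) for Smad6. The start sites are those of RefSeq, and the assembled Smad6 locus reaches 64022450, so its span takes in the whole Smad6 window. Capitals mark GC boxes, searched as GGGCGG and its reverse complement CCGCCC, the letters bound by the SP and KLF factors.
Tgfb1: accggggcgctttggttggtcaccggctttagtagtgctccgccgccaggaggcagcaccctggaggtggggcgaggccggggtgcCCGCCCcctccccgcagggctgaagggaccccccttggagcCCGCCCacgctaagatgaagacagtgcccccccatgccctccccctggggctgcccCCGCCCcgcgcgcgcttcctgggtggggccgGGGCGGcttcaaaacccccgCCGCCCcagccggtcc
Smad6: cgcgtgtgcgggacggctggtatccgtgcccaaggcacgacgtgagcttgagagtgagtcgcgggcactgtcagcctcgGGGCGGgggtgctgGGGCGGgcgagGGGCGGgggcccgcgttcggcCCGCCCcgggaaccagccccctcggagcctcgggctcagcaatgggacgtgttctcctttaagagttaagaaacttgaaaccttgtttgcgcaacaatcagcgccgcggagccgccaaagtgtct
The Tgfb1 stretch held 5 GC boxes and the Smad6 stretch 4, and 32.7% of 32851 RefSeq promoters held at least 1 in the same window. Their GC content was 75.2% and 66.8%, beside a median of 52.4%. These traits were not particular to the 2 genes. The window before Smad3 held 2 GC boxes at 69.2% GC, and that before the upstream Tgfbr1 start site (chr4:47352972-47353221) held 2 at 74.8%. CAGAC (or GTCTG), the short SMAD-binding element, was in neither the Tgfb1 nor the Smad6 window and in 42.2% of all promoters. It occurred at 2 places before Tgfb2, at 1 before Tgfbr2 and at 1 before the downstream of the Tgfbr1 start sites (chr4:47385966-47386215), none of which held a GC box, and the Tgfb2 window also had 1 TATAAA (12.4% of promoters). The palindrome GTCTAGAC was found before none of the 6 genes and in 0.167% of promoters.

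Tgfb1 was the ligand with the lowest unadjusted p-value by title, and it was low in 2 of the 3 double knockout libraries. Tgfb1, the ligand abundant in platelets and macrophages (chr7:25687002-25705077), stood at 13.6, 13.2, 19.98, 16.8 and 9.42 FPKM in ApoE-/- libraries 1 to 5 and at 11.95, 7.30 and 7.36 in NPRC-/-ApoE-/- libraries 1 to 3. The double knockout libraries 2 and 3 were the lowest of all 8, and library 1 lay inside the range of the ApoE-/- group. The mean was 14.6 ± 3.99 FPKM (SD, n = 5) against 8.87 ± 2.67 (n = 3), a log2 fold change of -0.72 (SE 0.29, 95% interval -1.38 to -0.06, edgeR unadjusted p = 0.0363, adjusted p = 0.336). By genotype entry it was -0.21 (SE 0.37, adjusted p = 1.0), and -1.01, with no test, when only the 4 libraries with agreeing labels were used (3 ApoE-/- and 1 double knockout).

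The libraries in which Tgfb1 was high and low were those in which macrophage and fibroblast markers were high and low. The 2 highest for Tgfb1, ApoE-/- 3 and 4, had the highest sums of 6 macrophage markers (1543.99 and 1682.14 FPKM) and of 6 fibroblast markers (1331.55 and 1289.88). The 3 lowest, NPRC-/-ApoE-/- 2 and 3 and ApoE-/- 5, had the lowest sums of both lists (macrophage 328.49, 259.86 and 535.57, fibroblast 282.05, 424.33 and 505.95). By title the macrophage sum ranged from 535.57 to 1682.14 in ApoE-/- and from 259.86 to 893.07 in the double knockout. Of its markers 6 of 6 were fitted lower and 1 (Csf1r) had an unadjusted p-value under 0.05 (7.13% of all loci, lower). For fibroblasts the ranges were 505.95 to 1331.55 and 282.05 to 701.16. Again 6 of 6 were fitted lower, and 2 (Dcn and Dpt) were under 0.05, beside the same 7.13%. No macrophage or fibroblast marker was at 0 in any library. The part of either cell type in the Tgfb1 difference was not tested.

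Tgfb2, the ligand that needs betaglycan for efficient receptor binding (chr1:186622792-186705989), was at 5.28, 5.87, 3.85, 6.68 and 5.97 FPKM in ApoE-/- and 5.15, 5.25 and 5.57 in the double knockout. The double knockout values all fell within the ApoE-/- range, and the log2 fold change was -0.03 (95% interval -0.41 to 0.36, edgeR unadjusted p = 0.871, adjusted p = 0.96). By genotype entry it was 0.30 (interval -0.03 to 0.62, unadjusted p = 0.067). Tgfb3, the ligand known for its part in palate closure (chr12:86056745-86079041), was at 11.1, 15.2, 14.5, 11.3 and 13.6 FPKM in ApoE-/- and at 14.95, 14.0 and 21.7 in the double knockout. Library 3 of the double knockout was the highest of the 8 and the other two lay inside the ApoE-/- range. The log2 fold change was 0.39 (SE 0.20, 95% interval -0.05 to 0.84, edgeR unadjusted p = 0.0777, adjusted p = 0.414), 0.14 without that library and 0.19 by genotype entry. The same library had the highest smooth muscle sum, 2879.63 FPKM, against 1294.7 to 1741.25 in ApoE-/- and 1673.08 in the lowest of the double knockout. All 6 smooth muscle markers were higher by title at an unadjusted p-value under 0.05 (6.51% of all loci) and 0 at an adjusted one, with a median log2 fold change of 0.64. By genotype entry 0 of the 6 had an unadjusted p-value under 0.05 and the median was 0.24. The part of smooth muscle in the Tgfb3 values was not tested.

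Shares of the summed ligand FPKM were compared between the groups. The sum adds models of unlike length, at 0.99, 2.16 and 1.47 times the annotated exon bases for Tgfb1, Tgfb2 and Tgfb3. The level of each share and the size of a difference therefore depend on the assembled models, and the shares are not the make-up of the ligand RNA. Tgfb1 supplied 43.3% ± 7.9 (SD, n = 5) in ApoE-/- and 28.7% ± 8.1 (n = 3) in the double knockout, and Tgfb3 39.7% ± 5.9 and 54.0% ± 8.1. Both differences, -14.7 and 14.3 percentage points, had p = 0.0714 in a two-sided exact permutation test (smallest possible 0.0357), or 0.1785 adjusted over the 5 ratios compared. The groups overlapped, and by genotype entry the p-values were 0.4643 for Tgfb1 and 0.6786 for Tgfb3. Tgfb2 held 16.9% and 17.3%. The shares are parts of a single sum, so with Tgfb2 nearly level a smaller Tgfb1 share means a larger Tgfb3 share. The differences of Tgfb1 and Tgfb3 are therefore not separate results.

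**Figure D2:**
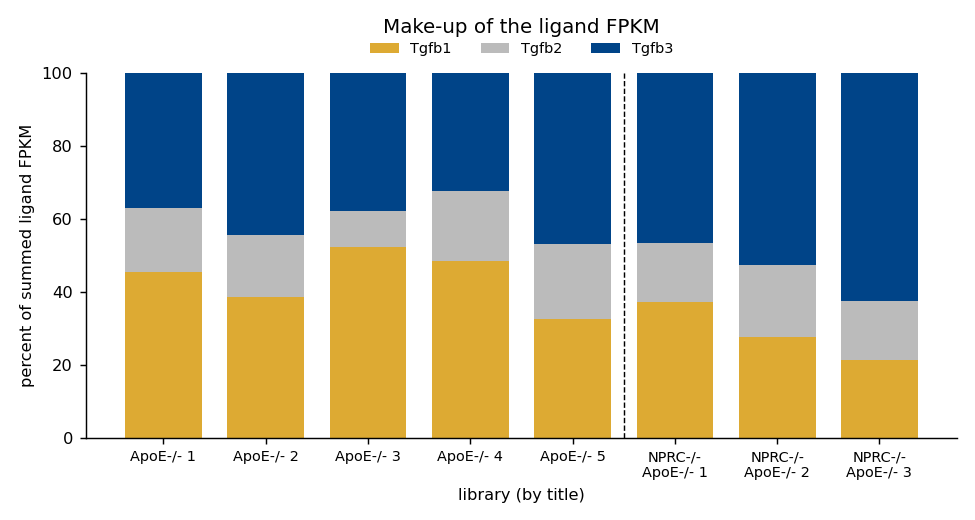
Percent of the summed FPKM of the 3 ligands (y axis) in each library by title (x axis), stacked as Tgfb1, Tgfb2 and Tgfb3 from the bottom, with a dashed line between the titled groups. Tgfb1 holds its smallest share and Tgfb3 its largest in NPRC-/-ApoE-/- libraries 2 and 3, while Tgfb2 is at 16.9% and 17.3% on average. The levels depend on the unlike lengths of the 3 assembled models.

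Neither signalling receptor passed the test, and both were fitted lower in the double knockout by title. Tgfbr2, the receptor that first binds the ligand (chr9:116084293-116175265), stood at 18.9, 24.2, 21.9, 22.1 and 16.7 FPKM in ApoE-/- and 18.7, 16.7 and 15.8 in the double knockout. The 3 double knockout values lay in the lower part of the ApoE-/- range or just under it. The log2 fold change was -0.27 (SE 0.17, 95% interval -0.65 to 0.11, edgeR unadjusted p = 0.142, adjusted p = 0.492), and -0.11 by genotype entry. Tgfbr1, the kinase that phosphorylates SMAD2 and SMAD3 (chr4:47350398-47414931), was at 3.97, 6.58, 5.38, 7.10 and 5.03 FPKM in ApoE-/- and at 4.72, 4.31 and 2.12 in the double knockout. Library 3 alone lay below the ApoE-/- range. Its log2 fold change was -0.60 (SE 0.29, 95% interval -1.25 to 0.06, edgeR unadjusted p = 0.0689, adjusted p = 0.398), -0.32 without that library and -0.05 by genotype entry. The log2 ratio of Tgfbr2 to Tgfbr1 FPKM was 0.37 higher in the double knockout by title (two-sided exact permutation p = 0.2857, n = 5 and 3, groups overlapping) and 0.07 higher by genotype entry. Only this difference is given, since the level of the ratio depends on the lengths of the assembled models.

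Tgfbr3, or betaglycan, the co-receptor that presents TGF-beta2 (chr5:107106570-107289629), was among the steadiest genes, at 4.54, 3.69, 3.20, 3.64 and 4.09 FPKM in ApoE-/- and 3.45, 4.84 and 3.43 in the double knockout. Its highest value was 1.51 times its lowest, against 1.26 times for Smad3, 1.53 for Tgfbr2 and 3.35 for Tgfbr1. The log2 fold change was 0.05 (95% interval -0.28 to 0.39, adjusted p = 0.898 in edgeR), and -0.05 by genotype entry. Its locus also carried the name Gm43422, so the reads of both were counted together.

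**Figure D3:**
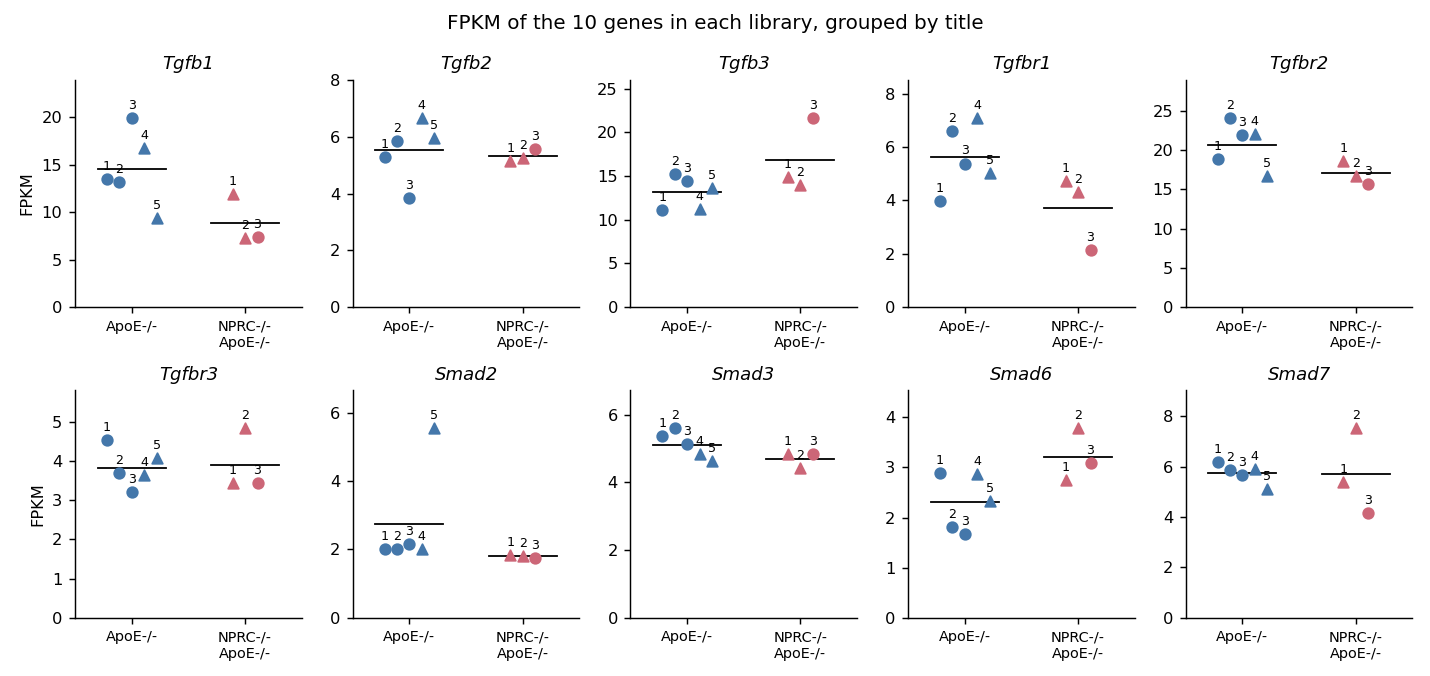
FPKM (y axes, each from 0) of the 10 genes in every library, grouped by title (x axis), with the library number above each point and the group mean as a line. Circles are libraries with agreeing labels and triangles those whose labels conflict, and the single high Smad2 value of ApoE-/- library 5, at 5.55 FPKM, stands away from the other 7 libraries.

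Of the SMADs that carry the signal, Smad3 was nearly level and Smad2 was level except for 1 library. Smad2 (chr18:76241580-76310963) was at 2.00, 2.00, 2.16, 2.02 and 5.55 FPKM in ApoE-/- and at 1.85, 1.82 and 1.75 in the double knockout. The value of ApoE-/- 5 was 2.57 times the next highest, and the other 7 libraries lay between 1.75 and 2.16. The log2 fold change was -0.57 (SE 0.34, 95% interval -1.34 to 0.21, edgeR unadjusted p = 0.132, adjusted p = 0.481), and -0.18 (adjusted p = 0.48) without that library. By genotype entry, which places ApoE-/- 5 in the double knockout, it was 0.65 (unadjusted p = 0.0699). In that library 16 of 20506 loci were at least 2-fold above every other library, and of 7 neighbouring loci within 500 kb none was. The groups by title did not overlap in FPKM. Of the 5 ApoE-/- values 4 lay between 2.00 and 2.16 FPKM, and the highest double knockout value was 1.85. A two-sided exact permutation test on log2 CPM gave p = 0.0357 (n = 5 and 3), the smallest possible. Groups without overlap must give this value, so it adds nothing to the lack of overlap. It was not adjusted over the genes compared.

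Smad3, the other receptor-regulated SMAD (chr9:63646767-63743265), was at 5.38, 5.60, 5.14, 4.83 and 4.63 FPKM in ApoE-/- and 4.83, 4.44 and 4.84 in the double knockout. It had the narrowest range of the 10 genes, and its log2 fold change of -0.10 had a 95% interval of -0.37 to 0.17 (edgeR unadjusted p = 0.43, adjusted p = 0.737), and it was -0.06 by genotype entry. The assembled Smad3 locus ends short of the annotated 5′ end of the gene at 63757994, and a locus on the opposite strand that overlaps an exon there bears the same name. Summing the loci named Smad3 gave a log2 fold change of 0.043.

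Neither inhibitory SMAD passed the test. Smad6, induced by BMP and TGF-beta signals and known for restraining BMP receptors in the vessel wall (chr9:63947908-64022450), was at 2.88, 1.82, 1.67, 2.87 and 2.33 FPKM in ApoE-/- and at 2.75, 3.78 and 3.08 in the double knockout. Library 1 of the double knockout lay inside the ApoE-/- range and the other two above it. Its log2 fold change was 0.49 (SE 0.21, 95% interval 0.02 to 0.97, edgeR unadjusted p = 0.0437, adjusted p = 0.353), and 0.14 by genotype entry. Smad7, which blocks TGFBR1 and marks it for degradation (chr18:75367529-75395935), was at 6.17, 5.88, 5.68, 5.91 and 5.11 FPKM in ApoE-/- and 5.37, 7.52 and 4.17 in the double knockout. Both the highest and the lowest Smad7 value were in the double knockout, and the log2 fold change was -0.005 (95% interval -0.41 to 0.40, edgeR unadjusted p = 0.979), and -0.24 by genotype entry. The log2 ratio of inhibitory to receptor-regulated SMAD FPKM, also among the 5 compared, was 0.38 higher in the double knockout by title. The groups overlapped (two-sided exact permutation p = 0.2143, n = 5 and 3, or 0.3571 adjusted over the 5 ratios). By genotype entry the sign was reversed, at -0.28 (two-sided exact permutation p = 0.4286, n = 5 and 3, groups overlapping). The ratio adds models of unlike length, so its level and the size of a difference depend on the assembled models.

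FPKM divides by the length of the assembled model, and for several of the 10 genes that length was far from the annotated exons. The annotated exon bases pool all transcripts of a gene. Against the longest coding transcript alone, the length behind the value was 2.3 times for Tgfb1 and 1.08 times for Smad2. From counts and FPKM, the length behind the value was 0.99 times the annotated exon bases for Tgfb1 and Smad2, 1.37 times for Tgfbr2 and 1.47 times for Tgfb3. It was 2.16 times for Tgfb2, 2.25 for Smad3 and 2.31 for Smad7. For Tgfbr3 it was 6.16 times, for Tgfbr1 7.23 times and for Smad6 14.1 times, where the model took in 45167 bases or 60.6% of the span of the locus and so included introns. The counts of Tgfbr3, Tgfbr1 and Smad6 therefore mix exonic and intronic reads. Models at 1.37 to 2.31 times the annotated exon bases also took in sequence outside those exons. The FPKM of different genes among the 10 therefore cannot be set against each other. Fold changes came from the counts and did not use the length.

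**Figure D4:**
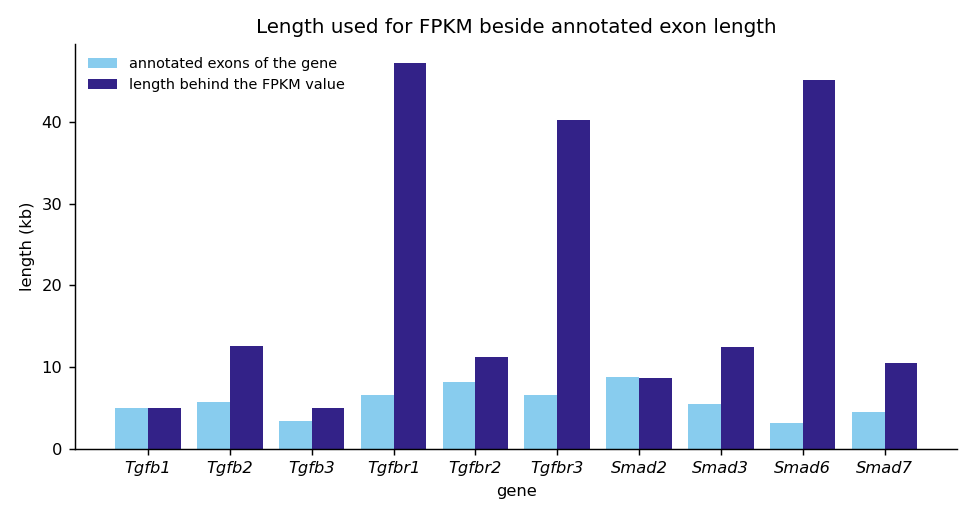
Length in kilobases (y axis) of the annotated exons of each of the 10 genes (light bars) and of the model behind its FPKM value (dark bars). The bars match for Tgfb1 and Smad2, and the dark bar is 6.16, 7.23 and 14.1 times the light one for Tgfbr3, Tgfbr1 and Smad6. The light bars pool all transcripts, and the Tgfb1 model is 2.3 times its longest coding transcript.

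Only 2 of the 10 names, Tgfb1 and Tgfb3, had a single locus in the table. The other 8 shared 23 further loci, 19 of them on the strand opposite to the gene and 19 within introns. None of the 18 that were tested had an unadjusted p-value under 0.05 by title, and their median log2 fold change was 0.10. Over all loci 7.13% were lower and 6.51% higher at that threshold, so with so few loci a count of 0 says little. A pair of Tgfb2 loci at one intronic place (chr1:186691748-186701849), on opposite strands, had FPKM of 4.97 and 4.98 in ApoE-/- 3, 1.55 on both in ApoE-/- 4 and 3.57 on both in NPRC-/-ApoE-/- 3. In the other 5 libraries the plus-strand locus was listed at 0. The libraries were prepared with a strand-marking kit, but whether the counting used strand is not given in the sources used here, and reads of the strands cannot be told apart here.

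Beyond the 10 genes, 83 pathway genes were listed by role, of which 77 were tested. At an unadjusted p-value under 0.05 by title 10 were lower and 6 higher, beside 7.13% and 6.51% of all loci, and 0 had an adjusted p-value under 0.05 in edgeR. At an adjusted p-value under 0.05, DESeq2 called 4 of them and limma with array weights 9, beside 3.37% and 5.7% of all loci. Their median log2 fold change was -0.13, and -0.001 by genotype entry. By genotype entry 1 was lower (Cdkn2b, a cell cycle inhibitor induced by TGF-beta) and 0 were higher, beside 1.31% of all loci in either direction. Cdkn2b was at -0.25 by title (edgeR unadjusted p = 0.564, adjusted p = 0.815). By genotype entry it was at -0.89 (unadjusted p = 0.0219) and did not pass at an adjusted p-value under 0.05.

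Of 9 tested activators of latent ligand, 3 had an unadjusted p-value under 0.05 by title, all lower (7.13% of all loci). Itgb8, the integrin subunit that frees latent TGF-beta, had a log2 fold change of -1.08 (SE 0.32, edgeR unadjusted p = 0.00851, adjusted p = 0.277), with 4.16 to 7.42 FPKM in ApoE-/- and 1.57 to 4.06 in the double knockout. Mmp14, a membrane-bound matrix protease, was at -1.21 (SE 0.36, adjusted p = 0.272), with 10.5 to 27.1 against 6.79 to 10.2 FPKM. Mmp2, the gelatinase that MMP14 activates, was at -1.04 (SE 0.36, adjusted p = 0.309). Itgb8 and Mmp14 did not overlap between the titled groups (4.37% of loci, lower), but by genotype entry they were at -0.03 and -0.004, and Mmp2 was at -0.31. The medians of the macrophage and fibroblast markers were -1.03 and -0.85 by title and -0.14 and -0.09 by genotype entry, and their part in these values was not tested. Of 7 storage genes tested, Ltbp1, which binds latent ligand to matrix, was at 0.51 and Nrros, which holds latent TGF-beta1 on myeloid cells, at -0.78 (adjusted p = 0.356 and 0.33), or 0.31 and -0.34 by genotype entry.

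Of the 10 other receptors only Acvrl1, a type I receptor of endothelium, had an unadjusted p-value under 0.05 (7.13% of all loci, lower). It was at -0.40 with 9.36 to 11.2 FPKM against 7.12 to 8.63, but at 0.10 by genotype entry. Smad9, a SMAD of the BMP branch, was at 0.61 (adjusted p = 0.331) and 0.14 by entry, while Smad4, the partner of SMAD2 and SMAD3, was at -0.10 and -0.006. Among binding proteins Dcn, a proteoglycan that binds TGF-beta, was at -0.84 (adjusted p = 0.309) and Fstl3, an activin antagonist, at 0.78 (adjusted p = 0.255), with 9.36 to 14.2 FPKM against 5.1 to 7.5 in ApoE-/-. By genotype entry Dcn was at -0.003 and Fstl3 at 0.34. Dcn is also 1 of the 6 fibroblast markers summed above, and the part of fibroblasts in these values was not tested. The 9 intracellular brakes tested held 0 genes under 0.05 (7.13% of all loci lower and 6.51% higher). The ligands Inhbb and Bmp2, of the activin and BMP branches, were at -0.94 and -0.67 by title and at 0.04 and -0.30 by genotype entry.

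Genes that TGF-beta induces were fitted in both directions, 13 lower and 7 higher by title. Their median log2 fold change was -0.16 by title, beside -0.006 over all loci, and -0.0003 by genotype entry. Of 20 tested, 3 were higher at an unadjusted p-value under 0.05 (6.51% of all loci): Acta2 at 0.61, Tagln at 0.53 and Cnn1 at 0.66. All 3 are contractile genes of smooth muscle that also stand in its marker list. Another 2 were lower (7.13% of all loci), the matrix genes Ccn1 at -0.83 and Tgfbi at -0.78. Cnn1 (43.4 to 65.4 FPKM in ApoE-/-, 74.9 to 92.3 in the double knockout) and Ccn1 (45.3 to 119.1 against 37.5 to 44.2) did not overlap by title. Over all loci 2.88% did so with the double knockout higher and 4.37% with it lower. None of these 5 genes passed at an adjusted p-value under 0.05 in edgeR. By genotype entry Acta2 was at 0.27, Tagln at 0.27, Cnn1 at 0.06, Ccn1 at -0.54 and Tgfbi at -0.08. After Acta2, the highest of the list in mean FPKM were the matrix genes Fn1 and Col1a1. They were at -0.47 and -1.02 by title (edgeR unadjusted p = 0.301 and 0.066), and at -0.001 and -0.11 by genotype entry. Col1a1 also stands in the fibroblast marker list.

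**Figure D5:**
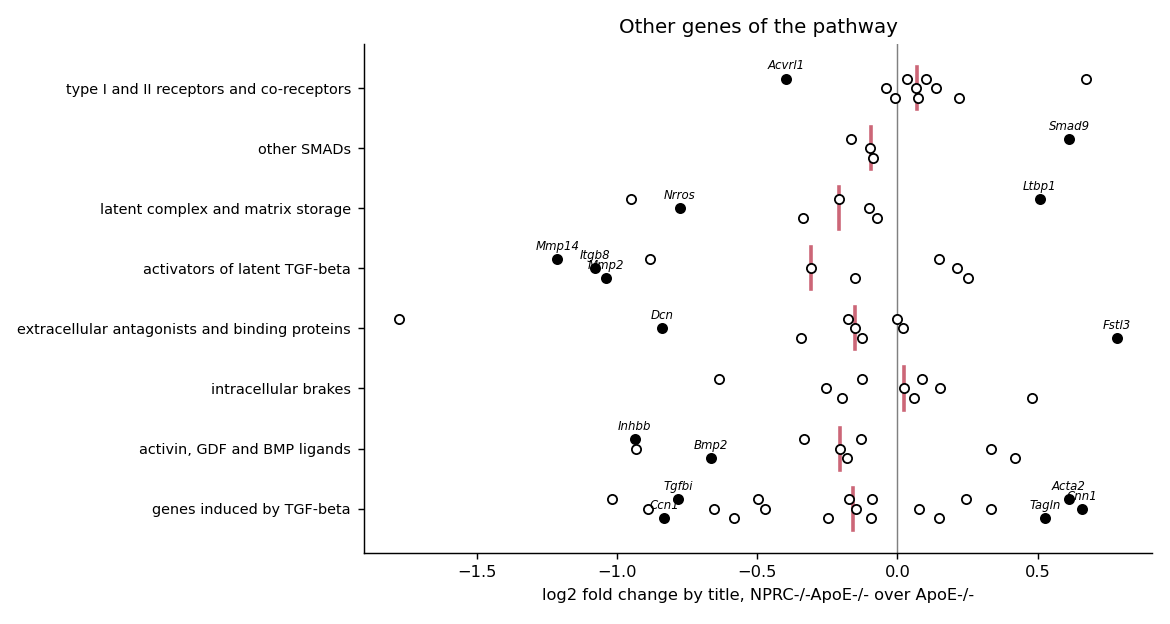
Log2 fold change by title (x axis, NPRC-/-ApoE-/- over ApoE-/-) of the 77 tested pathway genes in 8 roles (rows), with filled points for an unadjusted p-value under 0.05 and a red line for the median of the role. Filled points lie on both sides of 0, 10 below and 6 above, and all 3 filled activators lie below -1.

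Likeness of pattern was measured over the 8 libraries as Pearson's r of log2 CPM between each of the 10 genes and 3759 named loci with a mean of at least 5 FPKM. The best of so many candidates over 8 points is high through selection, so r is a description. Tgfb1 was most like Plau, the urokinase protease, and Sh3bgrl3 (r = 0.992 for both), and Tgfb3 most like Zyx, a focal adhesion protein (r = 0.936). Tgfbr2 was most like Stard3 (0.988), Tgfbr1 most like Dnaja2 (0.978), Smad3 most like Gm1821 (0.983), and Smad6 most like Gm5842 (0.943). The weakest best match was that of Smad2, with Cpsf6 at 0.805.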

How the data were processed

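RNA-seq of 8 whole aortas was analysed from 1 table of the authors. They trimmed reads with cutadapt 1.9, mapped them with HISAT2 to GRCm38 and assembled them with StringTie. For every locus they deposited counts as whole numbers without normalization, and FPKM values that the authors normalized to length and library size. How counts were made is not given in the sources used here, and the table's 0 columns without a sample needed no exclusion. Testing was limited to loci that reached 1 FPKM in 3 or more libraries, and used edgeR 4.0.16 in R 4.3.3 (TMM, quasi-likelihood test, Benjamini-Hochberg adjustment over all 20506 loci), and the fit was tested on simulated data. The biological coefficient of variation was 0.327. Single ratios were compared with two-sided exact permutation tests in scipy 1.17.1. Groups followed the titles, with the genotype entry, limma 3.58.1, DESeq2 1.42.0, other filters and left-out libraries as alternatives. Lengths were set against GENCODE M21, and promoter sequences came from RefSeq.

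The 10 genes and the lists were chosen with earlier results of these data known. Text names besides the 10 genes follow a fixed rule. It takes pathway genes with an unadjusted p-value under 0.05 by title, the loci most like each gene, and Npr3. The rule also allowed pathway genes among the highest in FPKM of their role, but few of these are named. Most pathway names were therefore picked by p-value. Smad4 and the markers Csf1r, Dcn and Dpt fall under their lists. Cdkn2b was named after its value was seen, as the 1 gene of its count. Adding counts over all loci of a name was chosen after seeing the data.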

Additional observations from a re-analysis of the deposited data

Results flagged for a closer look

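Of 52 groups of 5 libraries examined for a value far from the rest (Dixon's test), 4 held one, where chance gives about 2.6. Smad2 was at 5.55 FPKM in the library titled ApoE-/- 5, far above the other 4 of its titled group. Tgfb3, at 11.06 FPKM in ApoE-/- 1, lay far below the other 4 libraries entered as ApoE-/-, although ApoE-/- 4, entered as the double knockout, was at 11.28. The summed B cell markers were at 17.25 FPKM in ApoE-/- 2, far from the other libraries of its group by title and by genotype entry, with Ms4a1 at 0 in at least 1 library.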

How the results depend on the processing

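The labels of 4 of 8 libraries conflict, a group holds as few as 3 libraries, and the effect of depth was not tested. Over the alternatives run, the sign by title stayed for Tgfb1 (-1.01 to -0.21), Tgfb3, Tgfbr1, Tgfbr2 and Smad6 (0.14 to 0.65). Tgfb1 passed an adjusted p-value under 0.05 only with limma's array quality weights (0.049, range over alternatives 0.049 to 1.0). For these and the changes below, the cause was not tested.

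Reversed signs were seen by genotype entry for Tgfb2 (0.30), Tgfbr3 (-0.053) and Smad2 (0.65), and in the 4 libraries with agreeing labels for Tgfb2 (0.25) and Tgfbr3 (-0.060). Tgfb2 was also positive at a mean of at least 5 FPKM (0.057), with the replicate block (0.13) and in those 6 libraries without it (0.12), and when single libraries were left out it lay between -0.10 and 0.090. Tgfbr3 left-out values ran from -0.092 to 0.15. Smad7 was 0.069 with array weights, 0.00 with DESeq2, 0.0001 with median-ratio scaling, 0.092 at a mean of at least 5 FPKM, 0.054 with summed loci and -0.22 to 0.16 with single libraries left out. Smad3 was 0.043 with summed loci. The filter at a mean of 5 FPKM removed Smad2, Smad3, Smad6, Tgfbr1 and Tgfbr3.

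Of the 10 genes, 2 had an unadjusted p-value under 0.05. There were 0 by genotype entry, 1 with log2(FPKM + 0.1) in limma, 4 with array weights (1 adjusted), and 0 to 3 with a library left out, 0 being without ApoE-/- 3 or without NPRC-/-ApoE-/- 3. For the 77 pathway genes, 16 became 1 by entry, 27 with array weights and 4 to 25 with a library left out, 4 without NPRC-/-ApoE-/- 2 and 25 without NPRC-/-ApoE-/- 1. Adjusted, 0 became 9 with array weights and 4 with DESeq2. Over all loci, 2797 unadjusted became 269 by entry, 5909 with array weights, 4666 with no filter, 736 at a mean of 5 FPKM, 1813 with the replicate block and 1332 to 4431 with a library left out. Adjusted, 0 became 2 with limma, 1168 with array weights, 650 with DESeq2, 2 at a mean of 5 FPKM, 1 in 6 libraries without the block, and 0 to 45 with a library left out, 45 without NPRC-/-ApoE-/- 1. In log2 CPM the highest library was the same as in FPKM for 8 of the 10 genes and another for Tgfbr2 and Smad3.

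Libraries with the same number in their titles did not deviate together (mean correlation -0.138 over 3 pairs, 0.034 for other pairs). Their correlations, -0.274 to -0.012, lay within the range of the other pairs, -0.336 to 0.286. With 3 pairs, and conflicting labels in some of them, this cannot decide whether libraries of the same number shared a litter or a batch. With the replicate block Tgfb1 was at -0.80 and Smad6 at 0.65, and 1 of the 10 genes had an unadjusted p-value under 0.05.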
